A study of Saccharomyces cerevisiae with 2 samples.

Results

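Of the 78989 intergenic open reading frames (IGORFs) of the yeast genome for which ribosome footprints had been counted, 20287 lay near genes of the opposite strand only. An IGORF is a stretch between stop codons of one frame outside annotated genes, and it need not hold a start codon. These IGORFs were chosen by position in the R64 genome: more than 200 nt from any coding sequence (CDS) on their own strand, but within 200 nt of a CDS on the other strand or overlapping one. They are termed opposite-strand IGORFs and make up 25.7% of all IGORFs. The rule itself does not use the reads, although it was set with earlier results of these data known.

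Both libraries belong to 1 group. They are replicates of BY4742, a haploid laboratory strain of Saccharomyces cerevisiae, grown in synthetic medium to mid-exponential phase and given cycloheximide, which stalls elongating ribosomes, at 50 µg/mL. Ribosome profiling sequences the mRNA fragments that ribosomes protect from nuclease, and was used here to ask whether unannotated frames are read by ribosomes. Nothing in the labels states that the 2 were grown as independent cultures, and the spread between them may be technical. Replicate 1 had 4057 IGORF reads beside 23437283 CDS reads, and replicate 2 had 15116 beside 2733591, so the totals of the 2 kinds of count go in opposite directions. The files do not show that the CDS and IGORF counts of a replicate were made from the same reads in the same way. Levels are therefore given within each library and its IGORF total, and values that set IGORF counts against CDS counts rest on that pairing. With 2 libraries the smallest two-sided exact permutation p is 0.5. Differences between kinds of IGORF are therefore given with counting intervals at the 95% level and the direction in each library, and were not tested over samples.

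Yeast genes are closely packed, and DNA beside a gene can be transcribed on the other strand as well. Many yeast promoters fire in both directions and give short, unstable divergent transcripts, while beyond the stop codon antisense transcripts can run back towards a gene. Ribosomes that meet such RNAs scan from the cap to a start codon, usually AUG, and frames read in this way are studied as a source of new genes. An opposite-strand IGORF can therefore face a gene in either of 2 ways. On the start side its 5′ end faces the start codon of the neighbour, in a divergent arrangement, and on the stop side its 3′ end faces the stop codon of the neighbour, in a convergent one.

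The sequences of 7 opposite-strand IGORFs are shown to make the frames visible. The first 6 are among the 15 with the most reads and cover both arrangements. The last, which was chosen after its values were seen, ranks highest by mean share of IGORF reads among those without an in-frame ATG and had 3 and 4 reads. Each runs 5′ to 3′ on its own strand in the R64 reference, beginning just behind one in-frame stop and closing with another. Capitals mark the stretch from the first in-frame ATG to the stop codon, and a sequence with no capitals has no in-frame ATG.
chrIX:216377-216511 (minus strand, opposite SEC28): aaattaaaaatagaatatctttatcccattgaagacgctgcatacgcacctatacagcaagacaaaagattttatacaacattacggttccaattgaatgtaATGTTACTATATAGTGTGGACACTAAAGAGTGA
chrVII:226077-226334 (minus strand, opposite ARO2): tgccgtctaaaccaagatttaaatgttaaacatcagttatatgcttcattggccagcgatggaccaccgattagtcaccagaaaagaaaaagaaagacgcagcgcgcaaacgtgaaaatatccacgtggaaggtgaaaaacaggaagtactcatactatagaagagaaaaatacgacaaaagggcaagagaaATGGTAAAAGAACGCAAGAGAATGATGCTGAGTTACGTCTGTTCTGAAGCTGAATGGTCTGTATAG
chrI:175336-175476 (plus strand, opposite CDC15): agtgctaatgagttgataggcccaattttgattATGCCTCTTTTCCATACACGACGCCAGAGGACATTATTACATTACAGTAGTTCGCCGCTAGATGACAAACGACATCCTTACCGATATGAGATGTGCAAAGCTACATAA
chrXVI:192670-192810 (minus strand, opposite POS5): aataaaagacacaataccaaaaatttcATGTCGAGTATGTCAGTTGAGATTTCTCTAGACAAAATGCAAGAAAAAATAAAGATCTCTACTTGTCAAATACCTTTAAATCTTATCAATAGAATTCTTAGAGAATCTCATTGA
chrXIII:873039-873104 (plus strand, opposite ADH2): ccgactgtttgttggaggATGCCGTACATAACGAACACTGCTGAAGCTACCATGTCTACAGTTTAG
chrVII:544246-544314 (minus strand, opposite ERV1): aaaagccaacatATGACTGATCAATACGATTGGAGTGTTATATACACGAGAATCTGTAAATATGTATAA
chrIX:399409-399564 (minus strand, opposite SEC11): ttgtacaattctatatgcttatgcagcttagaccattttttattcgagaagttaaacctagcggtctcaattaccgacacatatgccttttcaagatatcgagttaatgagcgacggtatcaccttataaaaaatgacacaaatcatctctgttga

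Few of the opposite-strand IGORFs had any read. In replicate 1, 181 had at least 1 read, or 0.892% (95% Wilson interval 0.772% to 1.03%), against 2.07% of all IGORFs. In replicate 2, 630 had a read, or 3.11% (2.88% to 3.35%), against 4.89% of all. The median was 0 reads in both libraries. Most of those read had a single read, 131 in replicate 1 and 413 in replicate 2, and the highest counts were 38 and 89.

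A part of them was read in both libraries. This was so for 87, which is 48.1% of those read in replicate 1 and 13.8% of those read in replicate 2, or 0.429% of the class against 1.13% of all IGORFs. If reading in one library said nothing about the other, the product of the shares would give 5.62. Of all IGORFs, 895 were read in both, which is 54.8% of those read in replicate 1 and 23.2% of those read in replicate 2, and the product would give 79.7. The mark of 10 reads was reached in both libraries by 2 opposite-strand IGORFs, or 0.00986% (95% exact interval 0.00119% to 0.0356%), against 0.0367% of all IGORFs. In either library it was reached by 20, or 0.0986% (0.0602% to 0.152%), against 0.252% of all. All 20 reached 10 reads in replicate 2, and only the 2 did so in replicate 1.

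**Figure D1:**
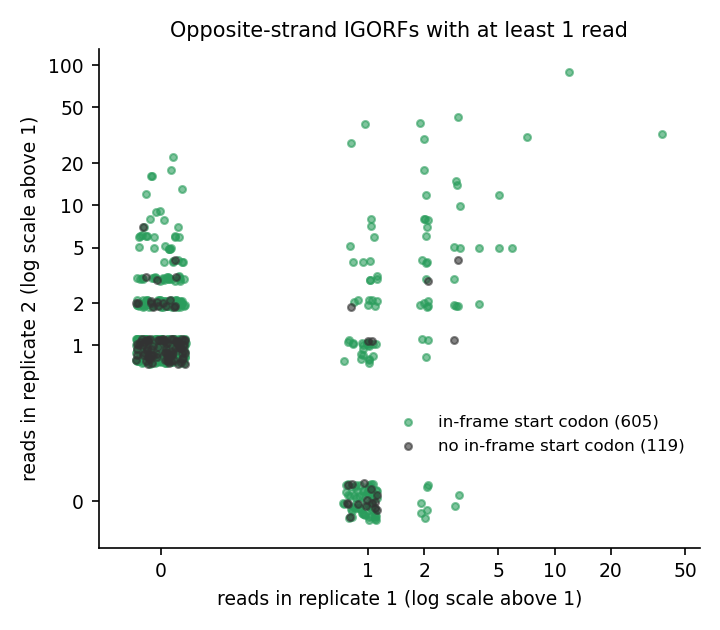
Reads in replicate 1 (x axis) and replicate 2 (y axis) of the 724 opposite-strand IGORFs with at least 1 read, 1 point each, on axes that are logarithmic above 1 read; points are spread slightly so that equal counts can be seen. Green points (605) hold an in-frame start codon and dark points (119) do not; every point at 10 or more reads is green.

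The class was read less per base than IGORFs upstream of a gene or far from all genes. It holds 25.6% of the total IGORF length and took 7.64% of the IGORF reads of replicate 1 and 10.2% of those of replicate 2, a mean of 8.90% ± 1.78 (SD, n = 2). Its 310 and 1535 reads correspond to 0.141 and 0.700 reads per kilobase. IGORFs far from any CDS had 0.267 and 1.06 reads per kilobase, those within 200 nt upstream of a CDS on their strand 1.29 and 4.56, and those within 200 nt downstream 0.0961 and 0.483. The order of these 4 classes was the same in both libraries. At the limits of the rule, the 3325 opposite-strand IGORFs in the last 50 nt inside the distance limit had 0.196 and 0.929 reads per kilobase, and the 2629 IGORFs in the next 50 nt beyond it had 0.354 and 1.27. At the limit for same-strand CDSs the values were 0.0912 and 0.577 in the 50 nt inside the class and 0.0815 and 0.644 in the 50 nt outside it.

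**Figure D2:**
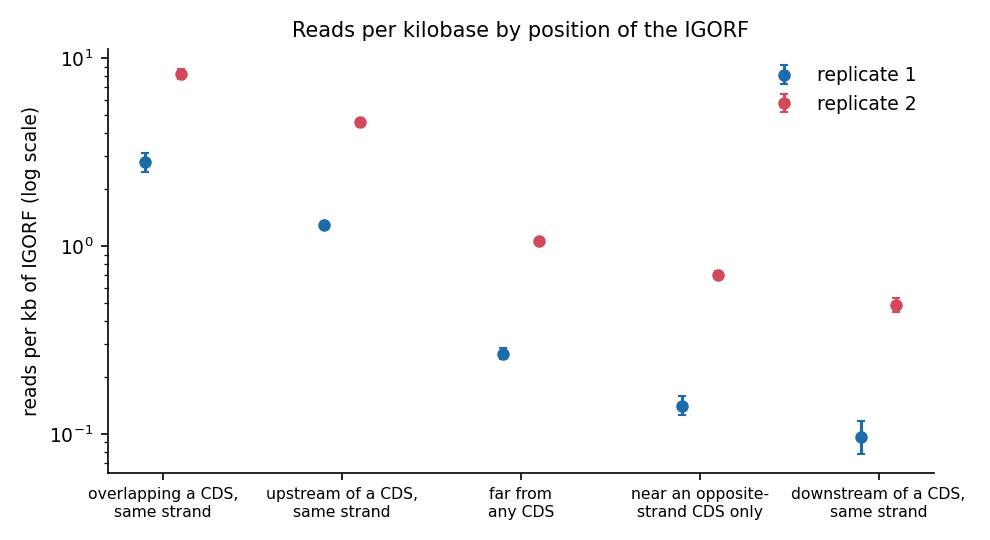
Reads per kilobase of IGORF (y axis, log scale) for 5 positions relative to annotated CDSs in replicate 1 (blue) and replicate 2 (red); bars are 95% Poisson intervals, which cover counting error only. Opposite-strand IGORFs lie at 0.141 and 0.700, below IGORFs far from any CDS and above those downstream of one.

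The opposite-strand IGORFs that were read were mostly those with an in-frame ATG. Such a codon is present in 9432 of the 20287, or 46.5%. These had 284 reads in replicate 1 and 1398 in replicate 2, whereas the 10855 without one had 26 and 137. Per kilobase this is 0.253 against 0.0243 in replicate 1, a 10.4-fold difference (95% exact interval 6.95 to 16.2), and 1.24 against 0.128 in replicate 2, a 9.71-fold difference (8.14 to 11.7). The intervals cover counting error only. Without the IGORF with the most reads the folds were 9.01 and 9.49. Reads are counted over the whole IGORF, so where they lie relative to the ATG is not known.

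The share with any read showed the same order. With an in-frame ATG 1.70% (95% Wilson interval 1.45% to 1.98%) and 5.58% (5.13% to 6.06%) had a read, and without one 0.193% (0.127% to 0.296%) and 0.958% (0.791% to 1.16%), in replicates 1 and 2. Of the 87 read in both libraries, 81 hold an in-frame ATG, or 93.1%. Of those read in replicate 1 only it was 84.0%, of those read in replicate 2 only 82.0%, and of those read in neither 45.1%. All 20 that reached 10 reads in either library hold one.

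The difference was present in each length class. IGORFs with an ATG are longer, with a median of 105 nt against 87 nt, and longer ones can collect more reads. Among those of under 90 nt, reads per kilobase were 0.241 with and 0.0168 without an ATG in replicate 1, and 1.07 and 0.118 in replicate 2. From 90 to under 150 nt the values were 0.280 and 0.0262, then 1.26 and 0.113. At 150 nt or more they were 0.230 and 0.0359, then 1.33 and 0.185.

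**Figure D3:**
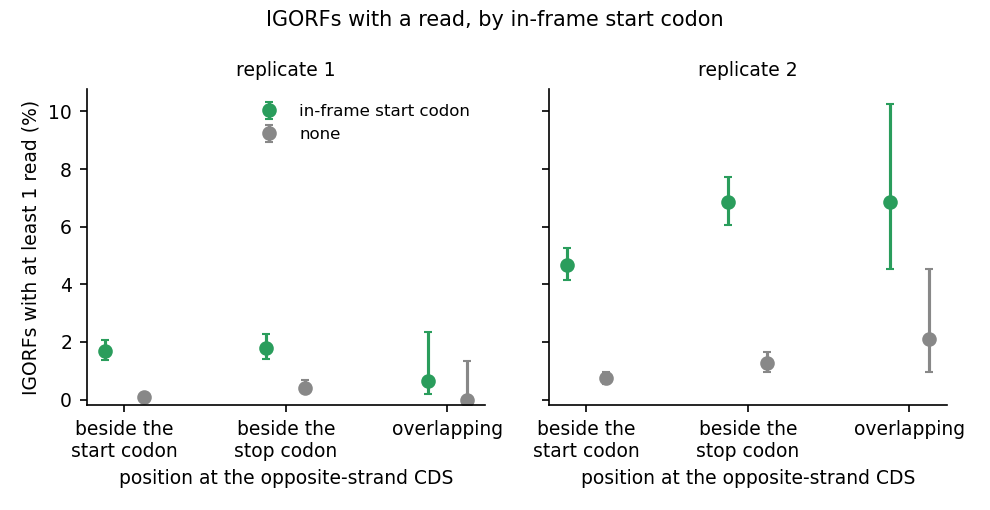
Share of opposite-strand IGORFs with at least 1 read (y axis, percent) by their position at the opposite-strand CDS (x axis), with (green) and without (grey) an in-frame start codon, in replicate 1 (left) and replicate 2 (right); bars are 95% Wilson intervals. On the start side the shares are 1.69% and 0.0751% in replicate 1, and 4.66% and 0.736% in replicate 2.

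ATG stood apart from all other codons. The same comparison was made for each of the 61 sense codons, always by whether the codon occurs in frame. For the 60 others the ratio of reads per kilobase ranged from 0.530 to 2.63 in replicate 1, with a median of 1.13, and from 0.462 to 2.60 in replicate 2, with a median of 1.20. AGA had the highest of these ratios in both libraries. ATG in the other reading frames showed no such ratio: shifted by 1 base it gave 1.26 and 1.16, and shifted by 2 bases 0.772 and 0.943. An in-frame CAT, which is ATG on the other strand, gave 0.697 and 1.22.

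**Figure D4:**
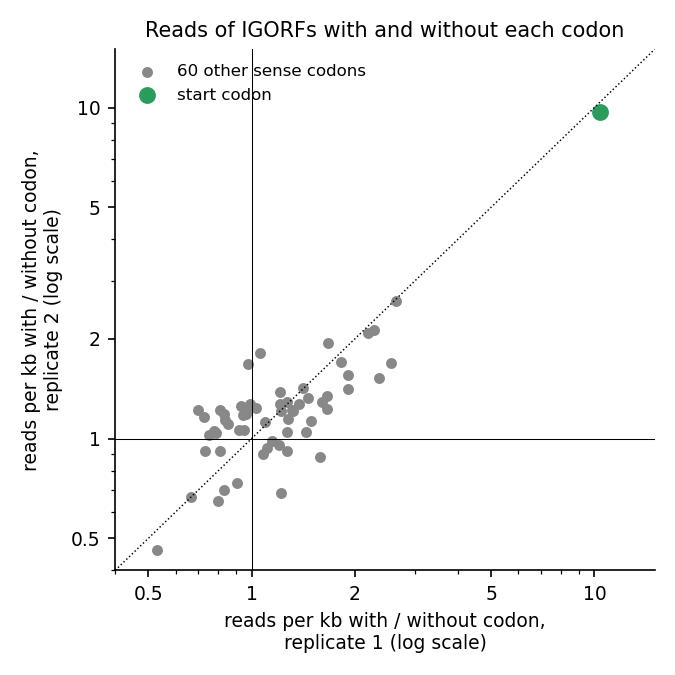
Ratio of reads per kilobase of opposite-strand IGORFs with a codon in frame to those without it, in replicate 1 (x axis) and replicate 2 (y axis), both on log scales, for 61 sense codons. The start codon (green) lies at 10.4 and 9.71, and the highest of the other 60 (grey) at 2.63 and 2.60.

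Overlapping frames of the same strand give a comparison between IGORFs that share a part of their bases. The 20287 IGORFs merge into 7216 separate loci, so many share bases in different frames. Among 13572 pairs that overlap by at least 30 nt on one strand, 252 had a read in replicate 1 and 857 in replicate 2. Both partners were read in 6 and 67. Where 1 partner reached 5 reads, in 13 and 80 pairs, the other was at 0 in 12 and 64. Only 0.892% and 3.11% of the class had a read, so such zeros cannot show that reads keep to 1 frame. In replicate 2 the other partner was read more often than that share. In 6898 pairs 1 partner has an in-frame ATG and the other has none. Partners with the ATG had 360 and 1473 reads and partners without it 28 and 112, which is a ratio of 12.9 in replicate 1 and 13.2 in replicate 2. An IGORF can stand in several pairs, and its reads then count several times. These are sums of reads, not corrected for the length of the partners, so the ratios cannot be set against the folds per kilobase. In 177 and 713 pairs of an opposite-strand IGORF and an IGORF on the other strand, 1 partner reached 5 reads. The other was at 0 in 177 and 678 of them. As only 2.07% and 4.89% of all IGORFs had a read, these zeros cannot show whether reads keep to 1 strand.

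IGORFs at other positions showed smaller ratios or none. Those far from any CDS had 4.60-fold (3.86 to 5.51) and 7.13-fold (6.44 to 7.91) more reads per kilobase with an in-frame ATG, and those downstream of a CDS 3.63-fold (2.26 to 6.04) and 3.96-fold (3.20 to 4.94). Upstream of a CDS the ratio was 0.537 and 0.538, and without the most-read IGORF of that class, which holds no in-frame ATG, it was 0.853 and 1.16. The counting intervals of the opposite-strand class lie above those of each other class in both libraries.

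The share with a read differed with the length of the frame from the ATG and, less, with the base before it. The frame from the first in-frame ATG has a median of 19 sense codons, a median of 24 in the 81 read in both libraries, and a range of 1 to 118. Where it has 1 to 4 codons, 0.557% and 2.56% of IGORFs had a read, and where it has at least 50, 3.08% and 10.9%. The IGORFs of these classes differ in length, with medians of 87 and 216 nt. Per kilobase they had 0.0673 and 0.239 reads in replicate 1, and 0.673 and 1.01 in replicate 2. The highest densities lay between, at 0.415 in replicate 1 from 10 to under 20 codons, where 38 of 108 reads belong to 1 IGORF, and at 1.49 in replicate 2 from 20 to under 30. Yeast start codons often have a purine at the third base before the ATG. With a purine there 2.07% (95% Wilson interval 1.71% to 2.51%) and 6.33% (5.68% to 7.04%) had a read, and with a pyrimidine 1.28% (0.986% to 1.65%) and 4.74% (4.16% to 5.41%). The intervals do not overlap in either library, but they cover counting error only and take each IGORF as separate, although many share bases. Single bases were less clear per kilobase: C stood below A in replicate 1, at 0.160 and 0.248 reads, and above it in replicate 2, at 1.44 and 1.25.

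Start-side IGORFs had fewer reads per kilobase than stop-side ones in both libraries, by an amount that depends on 1 IGORF and on the distance limit. On the start side, 12146 IGORFs had 186 and 772 reads, or 0.140 and 0.581 per kilobase. On the stop side, 7550 had 122 and 722, or 0.155 and 0.920 per kilobase. Another 591 overlap the opposite-strand CDS, mostly by a few bases (median 4, range 3 to 229), and had 2 and 41 reads. The side is that of the nearest opposite-strand CDS. Among the IGORFs that overlap none, 3426 lie within 200 nt of 2 such CDSs, 1 on each side, and had 47 and 257 reads. The ratio of start side to stop side was -0.15 on the log2 scale in replicate 1 and -0.66 in replicate 2. Without the most-read IGORF, which lies on the start side, it was -0.48 and -0.72. Limits of 100 and 50 nt gave -0.88 and -1.43 in replicate 1 and -1.17 and -1.73 in replicate 2, while with a limit of 500 nt its sign turned in both (0.13 and 0.054). An in-frame ATG went with more reads on both sides. On the start side, reads per kilobase with and without it were 0.271 and 0.00758 in replicate 1, and 1.07 and 0.0879 in replicate 2. On the stop side they were 0.247 and 0.0559, then 1.58 and 0.194. Among IGORFs with an ATG the start side was thus the higher in replicate 1 and the lower in replicate 2. The order in replicate 1 depends on the most-read IGORF, which supplied 38 of the 181 start-side reads with an ATG.

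On the start side, reads were fewest beside the start codon of the neighbour. IGORFs that begin within less than 50 nt of it had 20 and 125 reads, or 0.0502 and 0.313 per kilobase. From 50 nt to under 100 nt the values were 0.102 and 0.534, from 100 to under 150 nt 0.256 and 0.757, and from 150 to 200 nt 0.210 and 0.884. The third value of replicate 1 rests on 1 IGORF, the one opposite SEC28, and is 0.126 without it. Among IGORFs with an in-frame ATG the 4 classes had 0.0888, 0.196, 0.502 and 0.419 reads per kilobase in replicate 1 and 0.582, 0.996, 1.41 and 1.60 in replicate 2. The share with a read went from 0.333% to 1.53% in replicate 1 and from 1.69% to 4.05% in replicate 2 between the nearest and the farthest of these classes. The stop side showed no such order, with 0.167, 0.130, 0.163 and 0.165 reads per kilobase in replicate 1 and 1.08, 0.787, 0.756 and 1.03 in replicate 2.

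**Figure D5:**
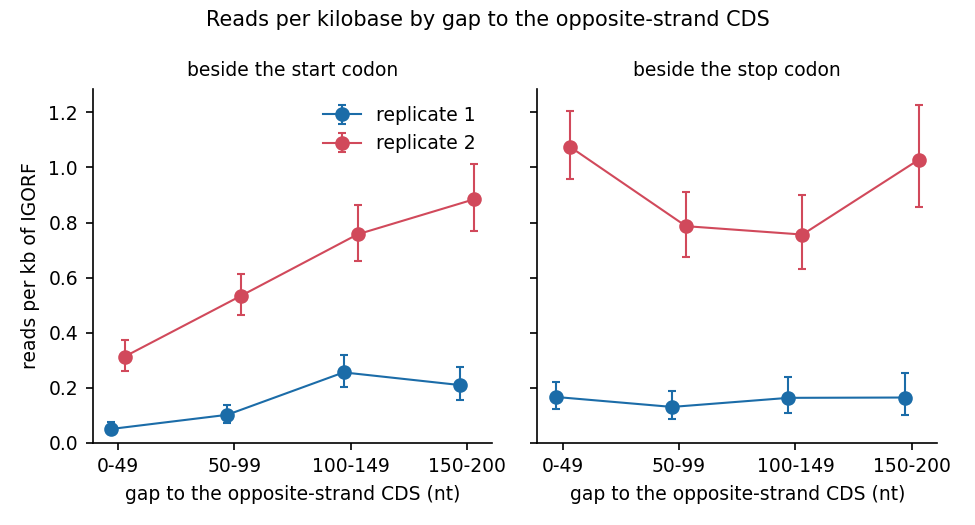
Reads per kilobase of opposite-strand IGORFs (y axis) by the gap in nt to the opposite-strand CDS (x axis), beside its start codon (left) and its stop codon (right), in replicate 1 (blue) and replicate 2 (red); bars are 95% Poisson intervals, which cover counting error only. Beside the start codon the nearest class lies lowest in both libraries, at 0.0502 and 0.313.

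The 15 IGORFs with the highest mean share of IGORF reads held 90 of the 310 and 421 of the 1535 reads of the class. All 15 contain an in-frame ATG, 9 lie on the start side and 6 on the stop side. The one at chrIX:216377-216511 had 38 reads in replicate 1 and 32 in replicate 2. It begins 146 nt from the start codon of SEC28, which encodes a coatomer subunit of vesicle transport, and its ATG is codon 35, which opens a short frame of 10 sense codons. It alone supplied 12.3% of the reads of the class in replicate 1, against 2.08% in replicate 2. The one at chrVII:226077-226334, 64 nt from the start codon of the chorismate synthase gene ARO2, had 12 and 89 reads, the most in replicate 2. Its first in-frame ATG is codon 65, and 21 sense codons make up its frame.

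Further start-side IGORFs face genes of varied function. The longest that was read in both libraries, chrIV:1258347-1258676, spans 330 nt, begins 19 nt from SPT3, a gene of the SAGA coactivator complex, and had 7 and 31 reads. The one at chrI:175336-175476 lies exactly at the limit of 200 nt from CDC15, which encodes a kinase of mitotic exit, and had 3 and 43 reads. Opposite GAS5, a gene of cell wall glucan remodelling, chrXV:267908-268063 had 2 and 30 reads. Those opposite FAU1, TRM12, the mitochondrial ribosomal protein gene MRPL10 and the prolyl isomerase gene FPR4 had 5 and 12, 6 and 5, 2 and 18, and 3 and 14 reads. All 4 had fewer than 10 reads in replicate 1. As shares of the IGORF reads, those opposite FAU1 and TRM12 were higher in replicate 1, at 0.123% against 0.0794% and 0.148% against 0.0331%. Those opposite MRPL10 and FPR4 were higher in replicate 2, at 0.119% against 0.0493% and 0.0926% against 0.0739%.

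On the stop side, most of the reads of the leading IGORFs lay in replicate 2, as did most reads of the whole class (310 in replicate 1 and 1535 in replicate 2). The one at chrXVI:192670-192810, 19 nt from the stop codon of the mitochondrial NADH kinase gene POS5, had 2 and 39 reads. The IGORF at chrIV:217076-217213 ends 1 nt from the stop codon of ARF2, a GTPase gene of vesicle transport, and had 1 and 38 reads. Beside HTA1, a histone H2A gene, chrIV:916025-916219 had 1 and 28 reads. Opposite ERV1, a sulfhydryl oxidase gene of mitochondria, chrVII:544246-544314 had 0 and 22 reads. The IGORF of 66 nt opposite ADH2, the glucose-repressed alcohol dehydrogenase gene, had 3 and 15 reads, and that opposite CRR1 had 5 in each library.

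Of 96 IGORFs whose mean reached 10 reads, 10 belong to the class, and the libraries were compared for each by an exact binomial test against the IGORF totals. Of all 96 tested, 49% differed, 17.7% higher in replicate 1 and 31.2% higher in replicate 2. Among the 10, 7 differed, 1 higher in replicate 1 and 6 higher in replicate 2. The test compares these libraries beyond counting error and says nothing of a condition. The IGORF opposite SEC28 was lower in replicate 2, at 0.226-fold with an adjusted p of 1.38e-08 in the exact test and a 95% exact interval from 0.137 to 0.372. The largest differences in the other direction were those of the IGORFs opposite ARF2 with 10.2-fold (1.72 to 413, adjusted p = 0.00756), HTA1 with 7.52-fold (1.24 to 307, adjusted p = 0.0444), POS5 with 5.23-fold (1.36 to 44.7, adjusted p = 0.0186) and CDC15 with 3.85-fold (1.23 to 19.4, adjusted p = 0.0264), all by that exact test. Opposite ERV1, with 0 and 22 reads, the lower bound of the exact interval was 1.47-fold higher in replicate 2 (adjusted p = 0.02 by the exact test).

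The number and direction of these differences rest on the scaling. With edgeR's TMM factors 2 of the 10 differed, 1 in each direction. With DESeq2's size factors 10 differed, 1 higher in replicate 1 and 9 in replicate 2, and with CDS totals all 10 were higher in replicate 2, the one opposite SEC28 included. These scalings moved every log2 ratio by -0.50, 1.31 and 5.00 against the IGORF totals, and their calls over all 96 were not counted. An edgeR exact test with the dispersion of the CDS counts called 3 of the 10, beside 30 of all 96 tested. Of the 3, SEC28's was the 1 higher in replicate 1 (adjusted p = 0.0103 in the edgeR exact test). The IGORFs opposite HTA1, POS5, CDC15 and ARO2 were not called by the edgeR exact test, with adjusted p of 0.0896, 0.0792, 0.123 and 0.333.

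The levels of the neighbouring genes were set beside the reads, with each IGORF taken once and several sharing a gene. The 20215 IGORFs whose nearest opposite-strand CDS was counted were put into 5 equal groups by the level of that CDS. From the lowest to the highest level they had 0.129, 0.140, 0.129, 0.195 and 0.114 reads per kilobase in replicate 1. In replicate 2 they had 0.365, 0.751, 0.841, 0.618 and 0.915, lowest opposite the least read genes and with no steady order above them. The 615 IGORFs opposite 132 ribosomal protein genes, whose median level was 1154 CPM (the CDS reads as CPM of the CDS total), had 4 and 50 reads. Per kilobase this is 0.0577 and 0.721, against 0.141 and 0.700 in the class. The 85 opposite 18 genes of glycolysis and fermentation had 5 and 6 reads, or 0.516 and 0.620 per kilobase. Of these, 4 and 2 lay in 1 IGORF of 237 nt beside the start codon of TPI1, the triose phosphate isomerase gene.

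Of the opposite-strand IGORFs, 48 overlap an annotated noncoding RNA gene, and none of these had a read in either library, which allows a share of up to 6.25%. The 183 within 200 nt of a tRNA gene on their strand had 0 and 4 reads, or 0 and 0.221 per kilobase. The 40 within 200 nt of a snoRNA gene had 2 and 8, or 0.494 and 1.98 per kilobase, and the 8 lay in 1 IGORF. The 894 that hold a word of 28 bases found elsewhere in the genome had 8 and 30 reads, or 0.0761 and 0.285 per kilobase. The class had 0.141 and 0.700. Where the next CDS on the same strand begins up to 500 nt after the IGORF, which holds for 3012 of them and for 3 of the leading 15, there were 83 of the 310 and 262 of the 1535 reads of the class, or 0.237 and 0.749 reads per kilobase. The value of replicate 1 is 0.129 without the IGORF opposite SEC28. Where that CDS begins more than 2000 nt away, the values were 0.114 and 0.693.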

How the data were processed

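The authors deposited raw read counts per CDS and per IGORF for each of the 2 libraries, per the file headers. Cutadapt, Bowtie, SAMtools and the build sacCer3 are named per the submitters' processing notes. The counting tool, any selection of reads by length or frame, and the treatment of reads with several positions, which decide what reaches an IGORF, remain not given in the sources used here. Coordinates in the identifiers were read as 1-based on R64: all 78989 IGORFs follow a stop codon, end in one and hold none inside. Gaps were counted in bases between the IGORF and CDS segments of the RefSeq R64 annotation, and sequences are RefSeq's for that build. The neighbour of an IGORF is its nearest opposite-strand CDS. 5993 of the 6666 CDS identifiers were found there.

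The split of each IGORF with a mean of at least 10 reads was tested against the IGORF totals with a two-sided exact binomial test, Benjamini-Hochberg adjusted over all tested IGORFs, threshold 0.05. The test was also run on simulated counts with counting error only, which cannot show how it behaves under further spread between libraries. Shares have Wilson intervals, and folds and counts of IGORFs exact ones. These and the limit of 3 reads for a count of 0 cover counting error only, and PCR copies cannot be told from separate molecules. Named IGORFs are the 15 with the highest mean share of IGORF reads, those with 10 reads in both libraries, the 5 with the largest called ratio in each direction, and the longest read in both. The members, lists and tests were chosen with earlier results of these data known. The codon comparison, the pairs of frames by ATG, the base before the ATG, the distance classes and the IGORFs opposite SEC11 and TPI1 were chosen after values were seen. Software was Python 3.11.15 with scipy 1.17.1, numpy 2.4.6 and pandas 2.3.3, and edgeR 4.0.16 and DESeq2 1.42.0 in R 4.3.3.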

Additional observations from a re-analysis of the deposited data

How the results depend on the processing

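No paired analysis was possible because both libraries belong to 1 group. The higher reads with an in-frame ATG kept their direction in both libraries under every alternative run for that comparison. A distance limit of 50 nt was not among these. Against a mean log2 ratio of 3.33 over the libraries, the value was 3.46 with a distance limit of 100 nt, 3.21 without the most-read IGORF, 2.65 where the frame after the ATG needed 10 codons, 3.51, 3.45 and 2.76 in the 3 length classes, and 3.41 with no same-strand CDS within 500 nt. With limits of 100, 50 and 500 nt, in place of 200 nt, the number with 10 reads in both libraries was 1, 0 and 4, that in either 10, 8 and 32, the mean share of IGORF reads 4.91%, 2.86% and 15.0%, and the mean log2 ratio of start to stop side -1.02, -1.58 and 0.091. A minimum of 5 or 20 reads gave 6 or 1 IGORFs in both libraries and 57 or 9 in either. Without the most-read IGORF of all, the share was 11.1%. Of the 10 tested IGORFs, 2 differed with TMM factors, 3 with the edgeR test (30 of all 96 tested) and, of all with a read, 1 with no minimum count. For the TMM factors and for no minimum count, calls over all tested IGORFs were not counted, so these have no share to be set against. The log2 ratio opposite SEC28 turned from -2.14 to 2.86 with CDS totals, and that opposite SPT3, not called, from 0.17 to -0.33 with TMM factors. Leaving out a replicate gave 2 to 20 IGORFs with 10 reads, 0.892% to 3.11% with a read, shares of 7.64% to 10.2%, side ratios of -0.66 to -0.15, ATG ratios of 3.28 to 3.38, and kept 9 to 12 of the 15 leading IGORFs. The low depth limits all values: the median IGORF of the class has no read.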
